A study of Mus musculus with 96 samples.

Results

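The 35 imprinted genes described here were the gene rows named for 16 imprinted loci of the mouse, chosen by symbol, and all 35 were present among the 21711 gene rows of the table. Of these, 28 had at least 100 reads over both cell types and are called measured, as were 11054 of all genes. Levels were compared between mouse embryonic stem cells (ES cells) labelled as the R1 line, a pluripotent line derived from the early mouse embryo, and mouse embryonic fibroblasts (MEFs), adherent connective tissue cells grown in a serum medium. RNA was read by single-cell tagged reverse transcription, which barcodes each well and sequences transcript 5′ ends with their strand. In 1 plate, sequenced as 1 library, 48 wells were labelled as ES cells, 44 as MEFs and 4 as negative controls. No genotype, treatment or mouse strain was labelled for any well. The source line field reads R1 for MEF wells too, which goes against their cell type label.

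Genomic imprinting is the expression of a gene from only the maternally or the paternally inherited copy. It is set by DNA methylation laid down in one germ line at imprinting control regions, which act over clusters that often pair protein-coding genes with a long noncoding RNA read from the other parental copy. Many imprinted genes act on fetal and placental growth: Igf2 is a growth factor, Igf2r clears it, and Cdkn1c and Grb10 restrain growth. The deposited counts do not separate the parental copies, so every value below is a total level and says nothing of which copy was read.

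Wells with at least 10000 gene reads were used, 45 ES cells and 44 MEFs. ES cells held 13576 to 703423 gene reads with a median of 161206, MEFs held 63938 to 1883709 with a median of 851801, and the negative control wells held 236 to 4662. The labels held for the marker lists: ES cells exceeded MEFs by at least 2-fold in all 7 ES cell markers, Pou5f1 and Sox2 among them, and fell short by at least 2-fold in all 7 fibroblast markers, Col1a1 and Thy1 among them. The fibroblast markers summed to 1640 CPM (reads scaled to 1000000 gene reads, pooled over the cells of a type) in ES cells, 23610 CPM in MEFs and 19957 CPM in the negative control wells. ES markers summed to 7454 CPM in ES cells, 27.2 CPM in MEFs and 4470 CPM in negative control wells. In the control wells these CPM are shares of few reads and not amounts per well. ES replicates 4, 7 and 30 had the highest sums of fibroblast markers, 8743 to 23703 CPM, against a median of 1062 CPM in the other 42 ES cells, the highest of which, at 8092 CPM, lay close to the lowest of the 3. The labels name no separate cultures, so each type counts as 1 culture, sizes are given without a test, and culture, medium, side of the plate and read depth cannot be told apart from cell type.

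Because the assay reads transcript starts, the annotated promoters of 5 members on which the levels and the co-variation below turn are shown first. They are the RefSeq promoters of GRCm38.p6, 250 bases before to 50 bases after the start, with most CpG pairs where a gene has several. They are Igf2 and Plagl1, the pair that varied most closely together over single MEFs, at chr7:142658755-142659054 on the minus strand and chr10:13090582-13090881 on the plus strand; Grb10, at chr11:12037371-12037670 on the minus strand; Meg3, the noncoding RNA of its cluster, at chr12:109540746-109541045 on the plus strand; and Peg3 at chr7:6730370-6730669 on the minus strand. Capitals mark the TATA box TATAAA, the CCAAT box CCAAT, the GC box GGGCGG and TGCCGC, the hexamer that the imprint-maintaining zinc finger protein ZFP57 binds when methylated, on either strand and with overlapping matches joined.
Igf2: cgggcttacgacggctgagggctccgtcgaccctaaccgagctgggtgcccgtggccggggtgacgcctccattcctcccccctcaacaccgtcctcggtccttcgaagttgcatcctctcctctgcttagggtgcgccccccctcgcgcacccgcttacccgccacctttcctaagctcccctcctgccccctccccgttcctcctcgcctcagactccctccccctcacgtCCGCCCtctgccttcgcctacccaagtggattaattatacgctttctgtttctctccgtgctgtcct
Plagl1: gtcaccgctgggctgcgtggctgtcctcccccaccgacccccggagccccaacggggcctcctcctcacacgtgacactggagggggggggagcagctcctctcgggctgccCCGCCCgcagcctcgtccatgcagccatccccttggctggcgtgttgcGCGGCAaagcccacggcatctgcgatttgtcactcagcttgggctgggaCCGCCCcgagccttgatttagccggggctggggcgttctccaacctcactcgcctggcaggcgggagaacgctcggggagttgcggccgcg
Grb10: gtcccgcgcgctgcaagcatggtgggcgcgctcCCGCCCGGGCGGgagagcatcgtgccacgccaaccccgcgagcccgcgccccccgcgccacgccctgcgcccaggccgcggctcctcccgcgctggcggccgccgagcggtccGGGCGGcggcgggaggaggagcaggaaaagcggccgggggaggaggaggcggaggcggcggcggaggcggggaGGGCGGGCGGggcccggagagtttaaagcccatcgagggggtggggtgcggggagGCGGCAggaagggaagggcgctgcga
Meg3: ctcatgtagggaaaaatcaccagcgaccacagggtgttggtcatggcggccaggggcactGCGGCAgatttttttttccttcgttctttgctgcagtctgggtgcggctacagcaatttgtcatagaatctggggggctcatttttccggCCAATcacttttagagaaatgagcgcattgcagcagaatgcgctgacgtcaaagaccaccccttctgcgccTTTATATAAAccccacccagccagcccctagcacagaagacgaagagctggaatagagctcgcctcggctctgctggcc
Peg3: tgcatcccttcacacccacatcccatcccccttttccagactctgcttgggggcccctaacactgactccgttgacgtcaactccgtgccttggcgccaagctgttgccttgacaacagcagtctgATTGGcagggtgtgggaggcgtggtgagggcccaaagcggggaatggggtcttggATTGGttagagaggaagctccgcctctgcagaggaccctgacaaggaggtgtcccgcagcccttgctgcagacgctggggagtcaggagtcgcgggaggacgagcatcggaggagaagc
Promoters were found for 30 of the 35 members, 46 promoters in all, and none for H19, Cdkn1c, Peg10, Sgce and Impact. TGCCGC stood in 12 of the 46 (26.1%), which belong to 11 members, and in 11.6% of all 32851 RefSeq promoters of that length. The member promoters had a median of 13.5 CpG pairs, against 7 over all promoters, and some are overlapping starts of 1 gene, so they are not independent. GGGCGG stood in 35.7% of all promoters, CCAAT in 37.4% and TATAAA in 13.6%. The Grb10 promoter held 45 CpG pairs and 5 GC boxes, and the Meg3 promoter 13 CpG pairs, 2 TATA boxes, 1 CCAAT box and 1 TGCCGC. The Igf2 promoter shown held 24 CpG pairs, the most of 4 annotated Igf2 promoters, which ranged down to 2. Reads were deposited per gene, so which of the 4 was used cannot be told here. Peg3 and Usp29 are divergent neighbours whose starts lie 164 bases apart, so that 263 bases of their promoter windows are shared. A match to these letters is a description of sequence and no sign of a bound factor.

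Of the 28 measured imprinted genes, 21 had a smaller share of the reads in ES cells than in MEFs, as did 74.7% of all measured genes. The 35 genes together took 0.118% of gene reads in ES cells, 0.648% in MEFs and 0.766% (96 of 12527) in the negative control wells. These are shares and not amounts per well: the 45 ES wells held 10301 member reads, and the 4 control wells 96. Per cell the share was 0.00788% at the lowest, 0.0841% at the median and 0.645% at the highest in ES cells, against 0.235%, 0.544% and 1.76% in MEFs. The ranges overlapped. ES replicates 4, 7 and 30 held 5.38% of the members' ES reads and 1.11% of all ES gene reads, and their member sums of 3904 to 6445 CPM lay within the MEF range of 2349 to 17583 CPM.

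On the CPM scale, 18 of the 28 measured members (64.3%) were lower in ES cells by at least 2-fold, a share near the 59.1% of all measured genes. The reverse held for 5 members (17.9%), beside 13.3% of all measured genes. The higher ones were Phlda2, Slc22a18, Peg12, Peg10 and Zdbf2. The split depends on the scaling: it was 15 lower and 9 higher with median-of-ratios scaling, and 27 lower and 1 higher, Phlda2, per spike-in read, where Slc22a18, Peg12, Peg10 and Zdbf2 were also lower in ES cells. Most genes of the table had a smaller share of reads in ES cells: the median log2 ratio of ES cell over MEF was −1.54 over all measured genes (SD 0.56 over the 8 plate rows, each of which held both types). The members' median was −2.48 (SD 0.73 over plate rows), which is −0.94 relative to the median gene. Against the median gene, 13 of 28 members were at least 2-fold lower, beside 35.1% of all genes, and 10 were at least 2-fold higher, beside 33.4%. Of the 23 members past 2-fold on the CPM scale, 16 had a log2 ratio larger than its own SD over plate rows. Slc22a18, Peg3, Peg12, Peg10, Sgce, Mest and Zdbf2 did not. How many of all genes did so was not counted. The row ratios had 1 CPM added, unlike the pooled ratios, which draws those of sparse genes toward 0. Phlda2 had 7.45 pooled and a mean of 2.99 over rows, and Zrsr1 −4.87 and −2.07. Lower in ES cells in each of the 8 plate rows were 9 members (32.1%), beside 20.5% of all genes, and no member was higher in all 8, beside 1.92% of all genes. By the allele that textbooks give as expressed, 7 of 12 measured maternal genes were lower and 2 higher, and 10 of 15 measured paternal genes were lower and 3 higher, with median relative log2 ratios of −0.82 and −0.93. Gnas, which has maternal and paternal transcripts, was counted with neither.

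Fibroblast genes were also read in ES wells, and their ratios serve here as a scale for those of the members. Vim and Fn1 were each read in 44 of the 45 ES cells, at 335 and 1009 CPM. Whether fibroblast marker reads in ES wells were stray or came from the ES cells was not tested. The log2 ratios of the 7 fibroblast markers ran from −4.71 for Thy1 to −3.30 for Vim, which puts their ES level at 3.83% to 10.2% of the MEF level. The ratios of 12 of the 28 measured members lay at or below that of Vim: H19, Igf2, Cdkn1c, Igf2r, Dlk1, Peg3, Ndn, Asb4, Plagl1, Nnat, Gnas and Zrsr1. Grb10 lay just above, at −3.29. How many of all measured genes lay at or below Vim was not counted, so the 12 are not shown to be a trait of imprinted genes. The cut at −3.30 rests on Vim alone, since the other markers lay at −3.85 (Fn1 and Pdgfrb) or lower. Of the members, only Cdkn1c, Asb4 and Zrsr1 lay below −3.85. For the 12 genes at or below Vim, whether ES cells expressed them was not tested. Their ES reads stood in no higher proportion to MEF reads than those of Vim. The part of stray fibroblast reads in them was not tested. In the negative control wells the 96 member reads were 22 of Igf2, 17 of Meg3, 15 of Ndn, 13 of H19, 8 each of Impact and Peg10, 5 each of Rian and Gnas and 3 of Grb10. Of the 12 genes at or below Vim, then, only H19, Igf2, Ndn and Gnas had reads there. Over the 45 ES wells these had 343, 528, 164 and 982 reads, beside 4 control wells.

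**Figure D1:**
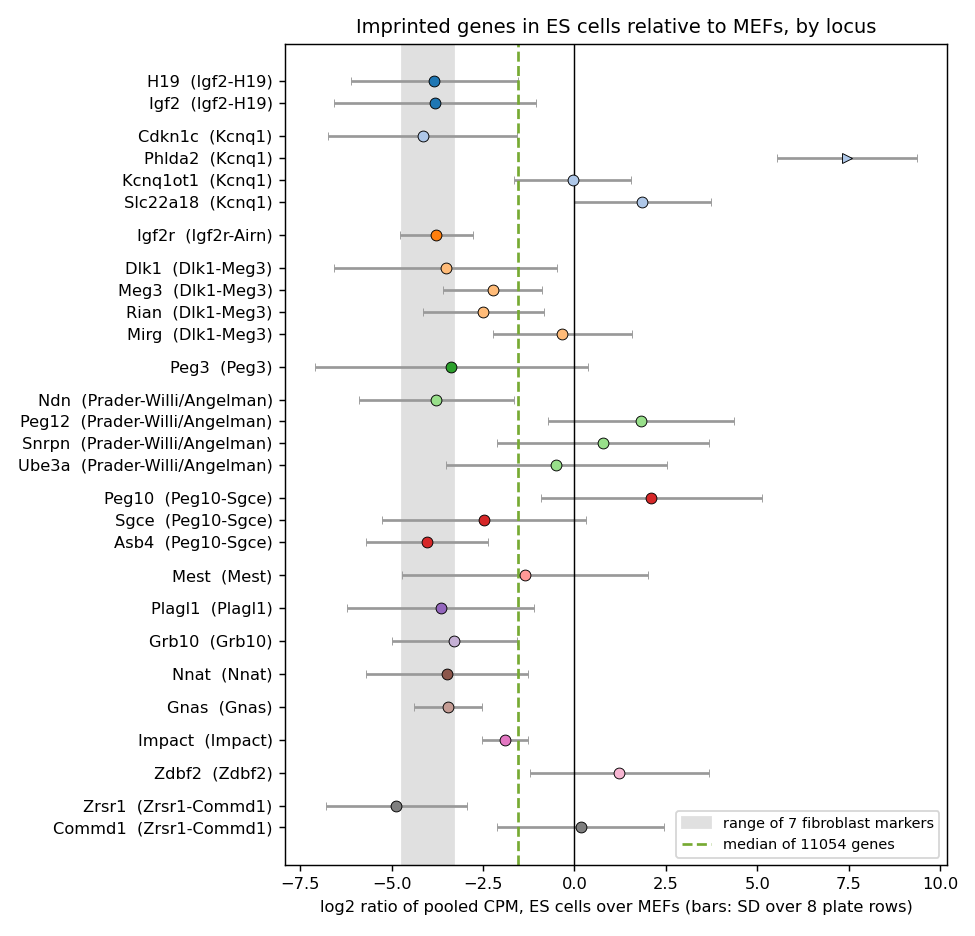
Log2 ratio of pooled CPM, ES cells over MEFs, for the 28 measured imprinted genes, grouped by locus. Points are the ratios and bars are the SD of the ratio over 8 plate rows. The triangle for Phlda2 is the ratio to the floor of 3 reads put in for MEFs, which is not a limit. The dashed line is the median of 11054 genes at −1.54 and the grey band the range of 7 fibroblast markers, −4.71 to −3.30; 12 members lie at or left of the band's right edge, and Phlda2, at 7.45, lies farthest to the right.

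The Igf2-H19 domain took the largest share of member reads in MEFs, 21.8%, beside 8.46% of member reads in ES cells. That rank rests on single cells: without MEF replicate 51 its share in MEFs was 18.7%, behind the Dlk1-Meg3 cluster at 20.5% and Gnas at 19.6%, and without replicate 60 it was 19.4%. Igf2 encodes insulin-like growth factor 2 and lies at chr7:142650768-142666816 (GRCm38); H19, a noncoding RNA from the other parental copy, lies at chr7:142575530-142578146. Igf2 had 60.5 CPM in ES cells and 855 CPM in MEFs (95% exact Poisson intervals 55.5 to 65.9 and 846 to 865, counting error only). Per cell, Igf2 had a lowest, median and highest value of 0, 24.9 and 1508 CPM in ES cells and 0, 258 and 4967 CPM in MEFs. The highest ES cell, replicate 4, was one of those with many fibroblast reads, and the groups overlapped across most of their range. H19 had 39.3 CPM in ES cells and 559 CPM in MEFs, with 0, 11.3 and 737 CPM per ES cell and 0, 21.9 and 7056 CPM per MEF. The H19 medians therefore lay close together while its highest MEFs stood far above any ES cell. The log2 ratios were −3.82 for Igf2 (SD 2.76 over plate rows) and −3.83 for H19 (SD 2.29), each lower in ES cells in 7 of 8 rows. Without MEF replicate 60, its leading cell, H19 had 364 CPM in MEFs and a log2 ratio of −3.21. With cells thinned to 20000 gene reads, H19 was seen in 19 of the 42 ES cells deep enough and in 22 MEFs, and Igf2 in 18 ES cells and 31 MEFs; unthinned, H19 was seen in 30 ES cells and 39 MEFs. For scale, the fibroblast collagen Col1a1 was seen in 35 ES cells.

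Igf2r, the receptor that carries IGF2 to lysosomes (chr17:12682406-12769706, GRCm38), was read in every MEF. It had 28.6 CPM in ES cells and 392 CPM in MEFs, with 0, 6.99 and 545 CPM per ES cell and 17.997, 310 and 1864 CPM per MEF. Its pooled plate rows did not overlap: ES cells reached at most 88.9 CPM in a row and MEFs at least 252 CPM. The log2 ratio was −3.78 with an SD of 1.00, among the smaller spreads of the members. Airn, the noncoding RNA that silences the paternal Igf2r copy, gave 10 reads from 1 ES cell and 65 from 5 MEFs, too few for a comparison. Around these genes, 8 of 11 genes of the IGF axis list (Igf1, Igf1r, Insr, IGF binding proteins and the mRNA-binding Igf2bp proteins) were lower in ES cells by at least 2-fold (72.7%, beside 59.1% of all genes) and 0 were higher by as much (beside 13.3%). Igf1r, the receptor through which IGF2 signals, had 22.2 CPM in ES cells and 292 CPM in MEFs.

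Grb10 and Plagl1 are growth regulators at loci of their own. Grb10, an adaptor that damps insulin and IGF receptor signalling, had 100.3 CPM in ES cells and 980.4 CPM in MEFs, with 0, 36.96 and 1650 CPM per ES cell and 0, 1065 and 2698 CPM per MEF. Its pooled rows did not overlap, with a highest ES row of 259 CPM and a lowest MEF row of 743 CPM, and the log2 ratio was −3.29 (SD 1.70). Plagl1, a zinc finger transcription factor, had 10.7 CPM in ES cells and 135 CPM in MEFs and was seen in 14 ES cells and 28 MEFs. Per cell it had 0, 0 and 512 CPM in ES cells and 0, 8.33 and 994 CPM in MEFs, so the median ES cell had no read. The log2 ratio of Plagl1 was −3.66 (SD 2.55), lower in ES cells in 8 of 8 rows.

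The Kcnq1 domain held genes that went in both directions. Phlda2, which restrains placental growth, gave 130 reads from 7 ES cells and 0 from the MEFs. That is 14.9 CPM in ES cells, or 175-fold the floor of 3 reads put in for the MEFs as a group. The floor is a set value, so this fold is not a lower limit. The exact Poisson upper limit for Phlda2 in MEFs was 0.105 CPM, and the lower limit in ES cells was 12.5 CPM. The 7 ES cells reached 278 CPM, 4 of them held 88.5% of the reads, and without the leading one, replicate 13, the level was 10.9 CPM. Cdkn1c, a cyclin-dependent kinase inhibitor, had 2.29 CPM in ES cells and 40.8 CPM in MEFs (log2 ratio −4.15, SD 2.58), from reads in 4 ES cells and 16 MEFs. Without MEF replicate 75 the ratio was −3.51. Kcnq1ot1, the noncoding RNA that silences the cluster in cis, had 55.4 CPM in ES cells and 57.4 CPM in MEFs. Its log2 ratio was −0.05 (SD 1.61), so that it lay 1.49 above the median gene, and it was read in 14 ES cells and 32 MEFs. Slc22a18, a membrane transporter, had 7.91 CPM in ES cells and 2.19 CPM in MEFs, but 4 ES cells and 5 MEFs held all its reads. Without ES replicate 36, which held 69.6% of its ES reads, its log2 ratio of 1.85 became 0.17. Ascl2, a trophoblast transcription factor, gave 15 reads from 1 ES cell and 84 from 3 MEFs.

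In the Dlk1-Meg3 cluster the maternally read noncoding RNAs carried nearly all reads. Meg3 had 86.2 CPM in ES cells and 406 CPM in MEFs, with 0, 31.97 and 1247 CPM per ES cell and 0, 307 and 1674 CPM per MEF. Rian, a host transcript of small nucleolar RNAs and microRNAs, had 147 CPM in ES cells and 828 CPM in MEFs, with 0, 26.7 and 1288 CPM per ES cell and 0, 702 and 3105 CPM per MEF. Both were lower in ES cells in 8 of 8 rows, at log2 ratios of −2.23 (SD 1.36) and −2.50 (SD 1.65). Relative to the median gene these were only −0.69 and −0.96. Both lay above the range of the fibroblast markers. A single ES cell, replicate 25, held 48.9% of the Rian ES reads, and without it the ratio was −3.38, inside the range of the fibroblast markers. Mirg, the most distal noncoding RNA listed, had 5.27 CPM in ES cells and 6.63 CPM in MEFs (log2 ratio −0.33, SD 1.91), and 2.50 CPM in ES cells without replicate 23. Dlk1, the paternally read transmembrane Notch-family ligand, had 1.72 CPM in ES cells and 19.8 CPM in MEFs and was read in 3 ES cells and 13 MEFs. ES replicates 4, 7 and 30 held 93.3% of its 15 ES reads, and without replicate 30 its log2 ratio of −3.52 became −5.43.

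The Prader-Willi and Angelman region on chromosome 7 was split. Ndn, a MAGE-family growth suppressor, had 18.8 CPM in ES cells and 257 CPM in MEFs, with 0, 0 and 1067 CPM per ES cell and 0, 254 and 850 CPM per MEF. Its pooled rows did not overlap, at no more than 35.96 CPM in ES cells and no less than 59.2 CPM in MEFs, and its log2 ratio was −3.78 (SD 2.12). Snrpn, a spliceosomal protein gene whose start lies at the imprinting centre, had 190 CPM in ES cells and 111 CPM in MEFs. However, 3.94% of Snrpn reads mapped uniquely, so near-identical copies could supply them, and 69.5% of its ES reads lay in 1 cell, replicate 22, without which it had 59.9 CPM in ES cells. Ube3a, a ubiquitin ligase imprinted in neurons, had 78.9 CPM in ES cells and 111 CPM in MEFs, again with 69.5% of ES reads in 1 cell, replicate 3, and reads in 12 ES cells and 35 MEFs. Without that cell its log2 ratio of −0.50 became −2.18. Peg12 had 10.8 CPM in ES cells and 3.04 CPM in MEFs, with 91.5% of its ES reads in replicate 25, the cell that led for Rian, and a log2 ratio that turned from 1.82 to −1.65 without it. Mkrn3 gave 8 reads from 1 ES cell and 70 from 2 MEFs. Magel2 had 0 reads in either type, among 8720507 ES and 35155326 MEF gene reads. Its exact Poisson upper limits were 0.423 CPM in ES cells and 0.105 CPM in MEFs.

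Peg3, a zinc finger gene whose loss in mice affects growth and maternal behaviour, had 12.7 CPM in ES cells and 131 CPM in MEFs. Per cell it had 0, 0 and 440 CPM in ES cells and 0, 24.8 and 1681 CPM in MEFs, and 47.1% of its MEF reads lay in 1 cell, replicate 65, without which the MEF level was 71.9 CPM. Its log2 ratio of −3.36 was smaller than its SD of 3.72 over plate rows. Usp29, which shares the Peg3 promoter window, gave no ES read and 44 reads from 2 MEFs, 88.6% of them from 1. Zim1, maternally read, gave no ES read and 68 reads from 2 MEFs, 58.8% of them from 1. Both had too few reads for a comparison.

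Peg10 and Sgce are paternally read divergent neighbours, and their ratios had opposite signs. Peg10, a retrotransposon-derived gene needed in the placenta, had 53.9 CPM in ES cells and 12.5 CPM in MEFs (log2 ratio 2.11, SD 3.02), from reads in 11 ES cells and 14 MEFs. It was lower in ES cells in 3 plate rows and higher in 4. Sgce, which encodes epsilon-sarcoglycan, had 5.16 CPM in ES cells and 28.6 CPM in MEFs (log2 ratio −2.47, SD 2.80). Both ratios were smaller than their SD over plate rows. Without their leading ES cells, replicates 23 and 47, they were 1.52 and −3.28, and without MEF replicate 55 Peg10 had 2.83. Asb4, maternally read, gave 5 reads from 1 ES cell and 327 from 8 MEFs.

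Gnas, which encodes the stimulatory G protein alpha subunit, was read in every MEF. It had 113 CPM in ES cells and 1240 CPM in MEFs, with 0, 69.9 and 1835 CPM per ES cell and 313, 1179 and 2623 CPM per MEF. The pooled rows did not overlap (at most 223 CPM in ES cells, at least 949 CPM in MEFs), and the log2 ratio was −3.46 with an SD of 0.93. Impact, a regulator of the translation kinase GCN2, had 41.4 CPM in ES cells and 155 CPM in MEFs, with a log2 ratio of −1.90 and an SD of 0.63, the smallest of the measured members. Relative to the median gene its log2 ratio was −0.36. Its pooled rows did not overlap, at no more than 55.5 CPM in ES cells and no less than 116 CPM in MEFs. Mest, a hydrolase family gene, had 19.04 CPM in ES cells and 48.4 CPM in MEFs, and its log2 ratio of −1.35 had an SD of 3.36. It was −1.87 without ES replicate 47 and −0.73, under 2-fold, without MEF replicate 57, and it was positive, 0.32, over plate rows E to H and, at 0.050, under median-of-ratios scaling. Nnat, a small membrane protein gene, had 2.18 CPM in ES cells and 24.5 CPM in MEFs and was read in 2 ES cells and 18 MEFs. Without ES replicate 22 its log2 ratio of −3.49 became −5.69.

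Zdbf2, a zinc finger gene read early in the embryo from a distal paternal start, had 34.9 CPM in ES cells and 14.8 CPM in MEFs. It was read in 13 ES cells, up to 362 CPM, and in 13 MEFs, up to 120.0 CPM, and the log2 ratio of 1.23 was within its SD of 2.44 and was 0.87, under 2-fold, without ES replicate 38. Commd1, the host gene of Zrsr1, had 36.2 CPM in ES cells and 32.3 CPM in MEFs (log2 ratio 0.17, SD 2.28). Zrsr1, a splicing factor retrogene inside a Commd1 intron, gave 2 reads from 2 ES cells and 235 from 12 MEFs, a log2 ratio of −4.87 (SD 1.92). Nap1l5, another intronic retrogene, gave no ES read and 1 MEF read.

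**Figure D2:**
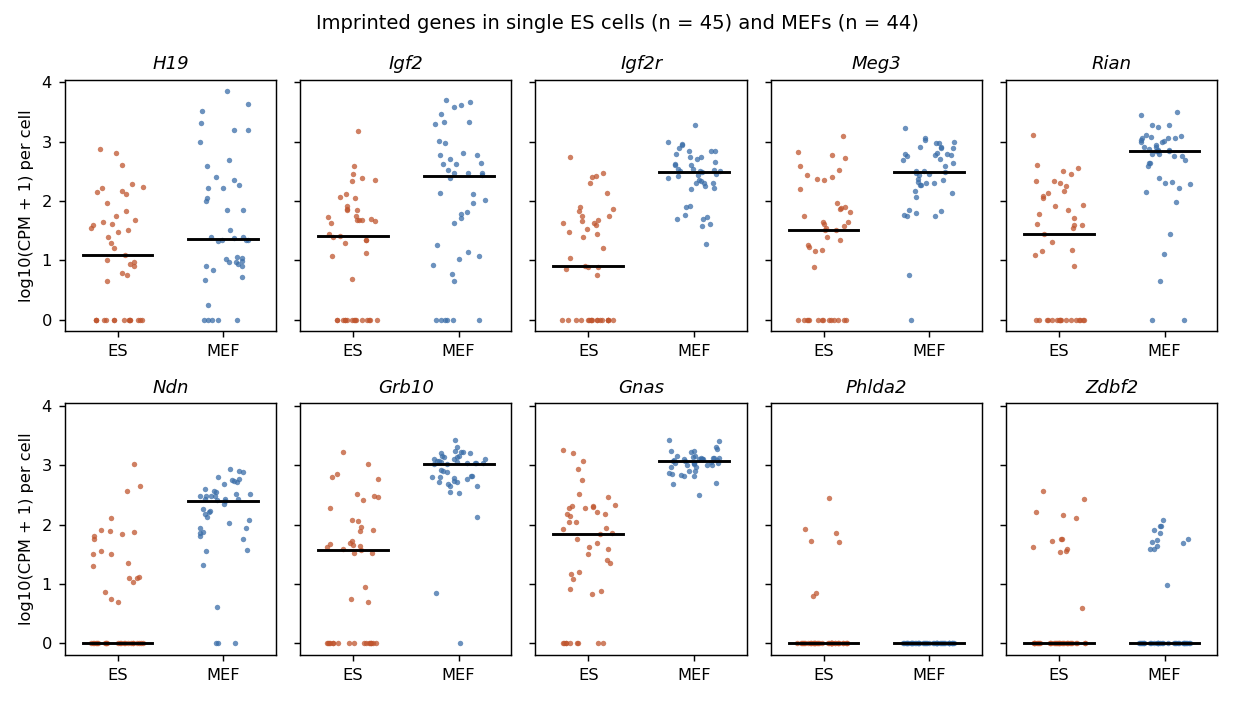
CPM per cell, as log10(CPM + 1), of 10 imprinted genes in 45 ES cells (left in each panel) and 44 MEFs (right); each point is a cell and the bar is the median. Igf2r and Gnas have a read in every MEF, H19 and Igf2 range over more than 3 log10 units among MEFs, and Phlda2 has no read in any MEF.

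More genes of any kind were read per cell in MEFs. A median of 10 members had a read in ES cells (range 1 to 20), against 17.5 in MEFs (range 6 to 25), beside medians of 2094 and 5909.5 of all gene rows. With each cell thinned to 20000 gene reads, which leaves out 3 shallower ES cells, the medians were 6 members in ES cells (range 1 to 18) and 12 in MEFs (range 6 to 19), beside 1549.5 and 3504.5 of all gene rows. The ranges of members read overlapped.

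Among MEFs, imprinted genes differed widely in how evenly cells carried them. The 4 MEFs with the most H19 reads held 79.3% of all H19 MEF reads, and 1 MEF, replicate 60, held 36.8%. For Igf2 the 4 leading MEFs held 53.5%. Over the 2597 genes with at least 1000 MEF reads and a read in at least 33 MEFs, the median for the 4 leading MEFs was 31.99%; H19 was more concentrated than 99.8% of these genes and Igf2 than 97.0%. At the other end stood Grb10, at 19.9%, more concentrated than 0.501% of these genes, and Gnas at 23.1%, more than 6.97%. Plagl1, below the cell minimum of that comparison, reached 71.4%. H19 was at 1000 CPM or more in 6 MEFs and at 10 CPM or more in 27, whereas Grb10 was at 1000 CPM or more in 24 MEFs. PCR copies were not removed, so a share held by a few cells also holds amplification from few molecules, the part of which was not tested.

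**Figure D3:**
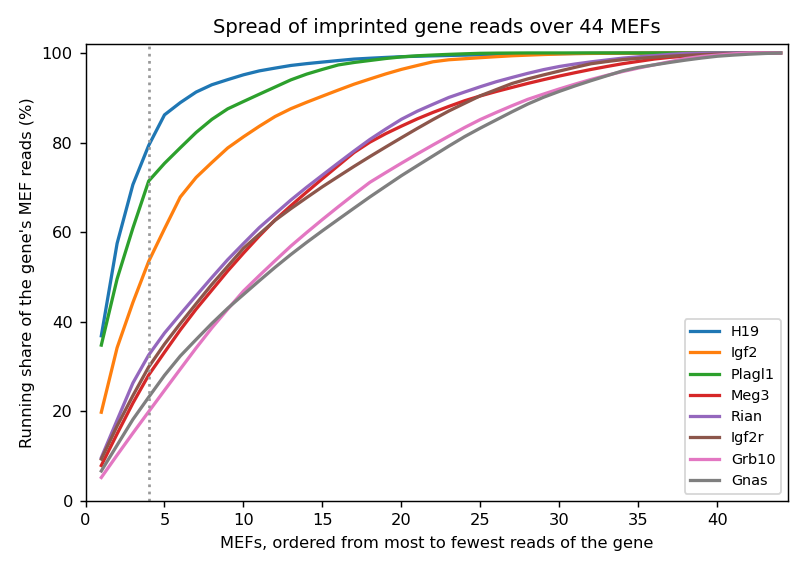
Running share (percent) of each gene's MEF reads, with the 44 MEFs ordered from most to fewest reads of that gene; each line is a gene and the dotted line marks the 4 leading MEFs. H19 reaches 79.3% and Plagl1 71.4% at the dotted line, Igf2 53.5%, Gnas 23.1% and Grb10 19.9%.

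Over single MEFs, rho between genes of a shared locus centred near 0, as it did between genes of different loci, and H19 with Igf2 had the highest value within a locus. Spearman rho on CPM was taken over 44 MEFs for the 24 members read in at least 11 of them, as a description: the cells share 1 plate and 1 library and differ in depth. The 13 pairs within a locus had a median rho of 0.04 (range −0.08 to 0.34), and the 263 pairs between loci a median of 0.06 (range −0.32 to 0.60). All pairs of the 2597 widely read genes had a median of 0.04, with 5% of pairs below −0.24 and 5% above 0.31. Those genes met a stricter minimum, a read in 33 MEFs and 1000 MEF reads, which 10 members met, so the 2 sets are not alike. H19 and Igf2, which share enhancers and an imprinting control region, had a rho of 0.34, and 0.45 with each MEF thinned to 60000 gene reads. Both genes were read in 35 MEFs, H19 alone in 4, Igf2 alone in 3 and neither in 2. They shared 2 of their 4 leading MEFs, replicates 51 and 88. Igf2 ranked 68 among 2596 genes by rho with H19, and H19 ranked 176 by rho with Igf2. Meg3 and Rian, on 1 strand and in tandem, had a rho of 0.26; it was 0.53 over plate rows A to D and −0.15 over rows E to H. Peg10 and Sgce had 0.08, Snrpn and Ube3a 0.05, Cdkn1c and Kcnq1ot1 0.00, and Zrsr1 and Commd1 −0.08.

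**Figure D4:**
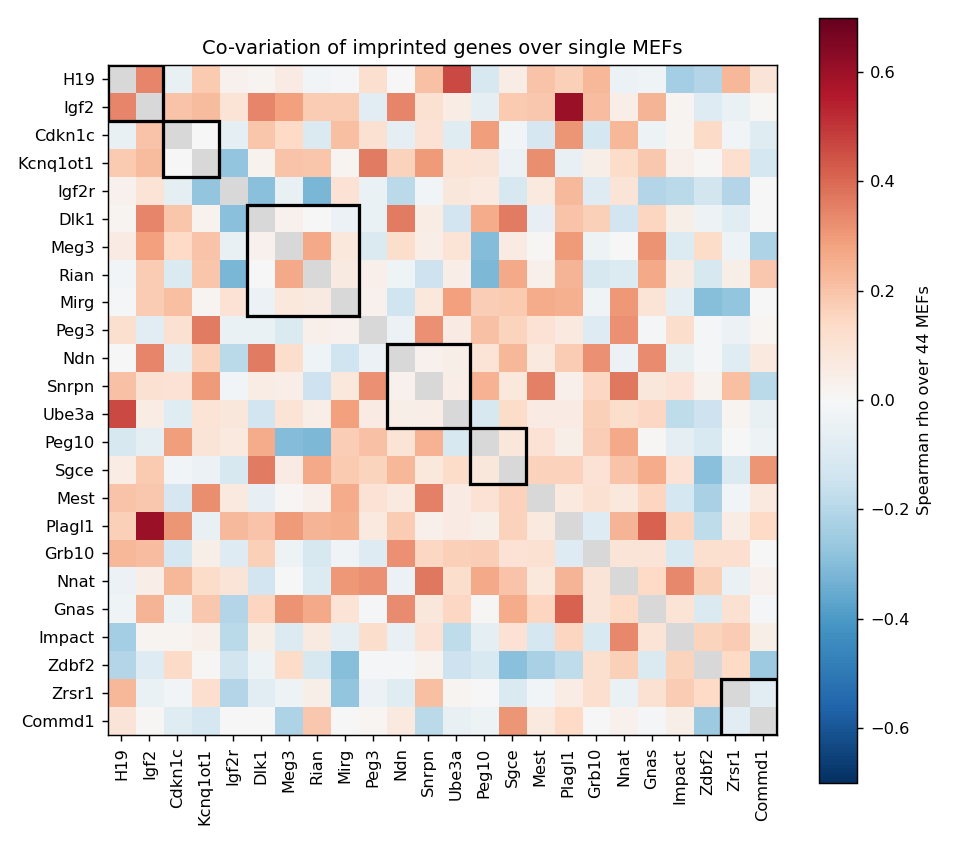
Spearman rho over 44 MEFs between the 24 imprinted genes read in at least 11 MEFs, ordered by locus; red is positive, blue negative, and black boxes enclose genes of a shared locus. The darkest cell is Igf2 with Plagl1 at 0.60, outside any box, and the within-locus pairs run from −0.08 to 0.34.

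The member pair with the highest rho lay on different chromosomes. It was picked as the top of 276 pairs, and the highest of so many values tends to be high. Igf2 and Plagl1, for which the 2 promoters were shown above, had a rho of 0.60, and 0.52 after thinning. All 28 MEFs with a Plagl1 read had an Igf2 read, as did 10 of the other 16. Both genes also followed how much was read from a cell: their rho with the number of genes read was 0.46 for Igf2 and 0.50 for Plagl1, and with gene reads per spike-in read 0.49 and 0.40. Given the number of genes read, the partial rho of the pair was 0.48; over plate rows A to D it was 0.75 and over rows E to H 0.36. Their 4 leading MEFs shared 0 cells. Next came H19 with Ube3a at 0.46 and Plagl1 with Gnas at 0.41. The lowest pair was Igf2r with Rian at −0.32, which was 0.04 when cells were scaled by spike-in reads.

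**Figure D5:**
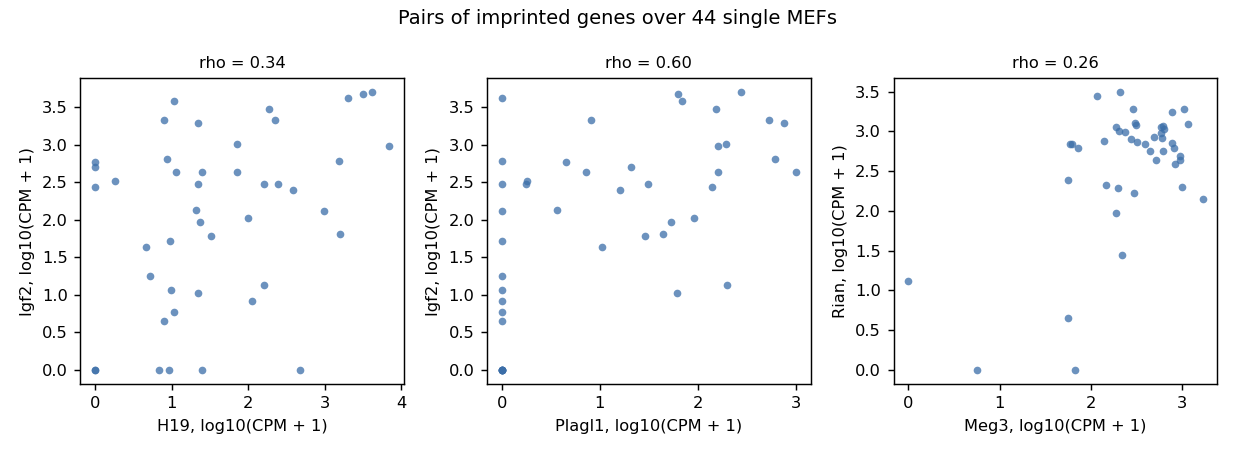
CPM per cell, as log10(CPM + 1), over 44 MEFs for H19 and Igf2 (left), Plagl1 and Igf2 (middle) and Meg3 and Rian (right); each point is a MEF. The rank correlation is 0.34, 0.60 and 0.26, and MEFs without a Plagl1 read, at 0 on the middle x axis, range from no Igf2 read to over 1000 CPM.

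The genes whose levels were most like those of 7 members over MEFs were sought among the 2597 genes with a read in at least 33 MEFs and at least 1000 MEF reads. Only 10 of the 35 members are among these, so the sets below say nothing of how often imprinted genes pair up, and Plagl1, read in 28 MEFs, was not a candidate, although its 0.60 lies between the values of the genes named next for Igf2. For Igf2 the 5 highest were Tulp3 (rho 0.70), the collagen-binding integrin subunit gene Itga11 (0.64), Zc3h11a (0.62), Pdcd5 (0.58) and Snap47 (0.58). For H19 they were the kinase gene Pkn2, the anaphase-promoting complex gene Anapc5, the small GTPase gene Rab34, the stromal surface gene Cd248 (endosialin) and Otud4, with rho of 0.49 to 0.54. Mest was closest to Rhoj (0.63), Armcx2, Cbx3, Tecr and Sf3b4. Ndn was closest to the microfibril gene Fbn1 (0.56), the tropomyosin gene Tpm4, Ufm1, Oat and Cox5a. For Igf2r they were Pomgnt1 (0.52), the actin-binding palladin gene Palld, Sfxn3, Txndc15 and Ndufa10. For Meg3 they were Srpr (0.52), the adhesion gene Alcam, Ubxn4, Ykt6 and Man2a1. For Peg3 they were Cxx1b, of whose reads 29.3% were unique, 2210013O21Rik, Zyg11b, Tnrc6a and Faf2, with rho of 0.48 to 0.50. Each set is the top 5 of 2596 or 2597 genes, and the highest of so many values is high for any gene.

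Outside the 35, a list of 44 other imprinted genes had 40 rows in the table, of which 25 were measured. Of these, 17 of 25 were lower in ES cells by at least 2-fold (beside 59.1% of all genes) and 2 (beside 13.3%), Mcts2 and Sfmbt2, higher by as much, with a median relative log2 ratio of −1.21. The largest ratios were those of the serotonin receptor gene Htr2a (0.229 CPM in ES cells and 15.2 CPM in MEFs), the X-inactivation RNA Xist (4.70 CPM in ES cells and 128 CPM in MEFs), Atp10a (no ES read and 322 MEF reads) and the paraoxonase gene Pon3 (2.06 CPM in ES cells and 47.1 CPM in MEFs). The sex of the cells was not examined, so the Xist values are not read as imprinting. Of the factors that set or keep imprints, together with the 5-methylcytosine oxidases Tet1 and Tet2, 19 were listed and 17 measured. Tet1 and Tet2 are among the 9 counted as higher next. ES cells had the higher level by at least 2-fold for 9 (52.9%, beside 13.3% of all genes) and the lower for 4 (23.5%, beside 59.1%), which were Smchd1, Ehmt2, Arid4a and Arid4b, with a median relative log2 ratio of 2.59. Of the 9, Tet2 (log2 ratio 1.66, SD 3.29), Hells (2.17, SD 2.61) and Setdb1 (1.05, SD 3.19) lay within their SD over plate rows. Among the 4, Ehmt2 and Arid4a did. The count used the CPM scale alone. Spike-in scaling, which lowers every ratio by 1 constant (the median gene from −1.54 to −6.10), was not applied to this list. Dnmt3l, the cofactor of de novo methylation, had 22.8 CPM in ES cells and 0.142 CPM in MEFs. Its reads came from only 5 ES cells and 1 MEF. Tet1 had 532 CPM in ES cells and 11.9 CPM in MEFs. Zfp42 (Rex1), which is also an ES marker, had 317 CPM in ES cells and 1.82 CPM in MEFs. Arid4b had 5.27 CPM in ES cells and 61.4 CPM in MEFs. Zfp57, whose hexamer is marked in the promoters above, had 24.4 CPM in ES cells and 3.98 CPM in MEFs, with a log2 ratio of 2.62 (SD 2.13).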

How the data were processed

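Raw counts of reads per gene, spike-in and repeat type in each of the 96 wells were deposited by the authors without normalization. Per the file headers, these are maximum exon hits, so reads that map to more than one place are included, and gene variants of a locus share counts. Further deposited columns, of another kind than the per-well counts, gave uniquely mapped reads over the plate and transcript length. Bowtie was the aligner per the submitters' processing notes; version, build and annotation: not given in the sources used here. No molecular identifiers were described per the labels.

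Gene rows (21711, without 1217 repeat and 8 spike-in rows) were totalled per well, and wells with at least 10000 gene reads were kept; ES replicates 32, 44 and 46 fell below this. No wells held identical values. Reads were summed by type and divided by the type's gene reads to give CPM; where a group had 0 reads, 3 reads were put in as a floor. Ratios per plate row had 1 CPM added to both types. Intervals are exact Poisson at the 95% level and cover counting error only. Each type was treated as 1 culture, so no test was run. Rank correlations are Spearman's. Thinning, ratios and rho were checked on simulated data. The measured minimum was 100 reads over both types. All 35 members are accounted for; partner genes are the 5 highest by rho for 7 members, and from the 2 lists of other imprinted genes and imprint factors the 4 measured genes with the largest ratio are named. Other names were chosen after their values were seen. The members, loci and lists were chosen with earlier results of these data known. Python 3.11.15, numpy 2.4.6, pandas 2.3.3, scipy 1.17.1 and matplotlib 3.10.9 were used.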

Additional observations from a re-analysis of the deposited data

How the results depend on the processing

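No paired analysis was possible because ES cells, MEFs and negative control wells share no replicate numbers in the labels; plate rows held both types but different cells, and served only for the spread. The members at least 2-fold lower in ES cells numbered 18, and 15 to 21 under every alternative except scaling by spike-in reads, which gave 27. Those at least 2-fold higher numbered 5, against 9 under median-of-ratios scaling, 1 per spike-in read, 3 by the mean of per-cell CPM and 2 with 10 CPM added. The members' median log2 ratio of −2.48 became −1.09 under median-of-ratios scaling, −7.05 per spike-in read and −1.35 with 10 CPM added. Scaling moved the median gene from −1.54 to −0.15 (median-of-ratios), −0.91 (without ribosomal protein genes in the totals) and −6.10 (spike-in reads), by 1 constant for every gene, so that values relative to it stay by construction. Without ES replicates 4, 7 and 30 the counts were 18 and 5 and the median −2.51. With the negative control background subtracted, leaving out each control well in turn gave medians of −2.67 to −2.50. Among the 23 members past 2-fold, ratios changed sign for Mest (0.050 under median-of-ratios scaling, 0.32 in plate rows E to H), Peg12 (−2.74 per spike-in read, −1.73 in rows E to H, −0.35 when thinned, −1.65 without its leading ES cell, chosen after seeing the data) and, per spike-in read, Peg10 (−2.46), Slc22a18 (−2.71) and Zdbf2 (−3.33). Sign changes under those scalings follow from the constant; the cause of the others was not tested.

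The rho of H19 and Igf2, 0.34, was 0.45 with each MEF thinned to 60000 gene reads, 0.45 in rows E to H, 0.51 in plate columns 10 to 12, 0.24 in MEFs with at least 500000 gene reads and 0.45 with spike-in scaling. The median within a locus, 0.04, was −0.065 in columns 7 to 9 and 0.21 in columns 10 to 12. The median between loci was 0.16 with spike-in scaling. Chosen after seeing the data, Meg3 with Rian had −0.15 in rows E to H and Igf2r with Rian 0.035 with spike-in scaling. Sparse reads limit members seen in few cells.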
